A study of Mus musculus with 2 samples.

Results

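The MiT family of transcription factors was followed across the cells of the embryonic mouse eye cup. The family has 4 members, Mitf, Tfec, Tfeb and Tfe3, and these 4 genes were taken by their symbols from the 31053 genes that both libraries list. The data are 2 single-cell RNA libraries from mouse eye cups at e15.5, late in embryonic life, 1 from Myrf fl/fl controls and 1 from Rx>cre Myrf fl/fl mutants. In the mutants a Cre transgene driven by Rx, a gene of the early eye field, deletes the floxed Myrf gene, so that cells that never expressed Rx, such as melanocytes, mesenchyme and macrophages, are outside the reach of the Cre. Both groups carry the floxed Myrf alleles and differ in the Cre. Each library holds 3 pooled eye cups from which the cornea, lens and optic nerve had been cut away, so the animals of a pool cannot be separated. With 1 library per genotype there is no replicate error and no test. Each level is therefore given with an exact 95% interval that covers counting error only, and a mutant to control ratio describes this pair of libraries.

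MiT proteins are basic helix-loop-helix leucine zipper factors that bind DNA as dimers, with themselves or with each other, at the E-box CACGTG and at the related CATGTG, which in pigment genes often lies in a longer M-box. Mitf is the master regulator of pigment cells. It is needed for melanocytes, which come from the neural crest, and for the retinal pigment epithelium (RPE), which comes from the optic cup, and in its absence the RPE can turn towards neural retina. Tfec is known from the RPE and from macrophages. Tfeb and Tfe3 are broadly expressed, are held in the cytoplasm by nutrient signalling at the lysosome, and drive genes of lysosomes and autophagy through CACGTG sites known as the CLEAR element.

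The DNA that these factors read is shown first, because the family can be described here only by its transcripts. In the 250 bases before the annotated start, searched on both strands in RefSeq windows of GRCm38.p6, CACGTG was found in 6.02% and CATGTG in 12.3% of 32851 windows. A window was available for 10 of 15 genes of melanin and the melanosome that are known as MITF targets, and 8 of the 10 held at least 1 of the 2 motifs. CATGTG was in 7 of these genes and CACGTG in 2, whereas over all 27025 genes with a window the shares were 13.8% and 6.86%. Of 26 lysosome genes of the CLEAR network with a window, 11 held CACGTG and 2 held CATGTG. None of the 9 windows of the 4 members held either. The windows below belong to pigment genes and to Ctsd, with the motif in capitals and up to 20 bases to each side, read 5′ to 3′ on the strand of the gene. They lie at chr7:87493513-87493553 for Tyr, chr4:80834147-80834192 for Tyrp1, chr14:118052371-118052416 for Dct, chr7:64153674-64153719 and chr7:64185210-64185255 for the 2 starts of Trpm1, chr2:125068094-125068126 for Slc24a5, chr7:56239553-56239598 for Oca2, chr9:73063898-73063927 for Rab27a and chr7:142387900-142387945 for Ctsd. Tyr, Dct and Ctsd are on the minus strand and the others on the plus strand.
Tyr: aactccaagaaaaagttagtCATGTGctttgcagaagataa
Tyrp1: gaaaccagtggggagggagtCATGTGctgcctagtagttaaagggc
Dct: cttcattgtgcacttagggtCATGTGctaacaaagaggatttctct
Trpm1, first start: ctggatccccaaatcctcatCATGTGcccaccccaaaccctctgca
Trpm1, second start: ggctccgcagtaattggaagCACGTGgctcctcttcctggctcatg
Slc24a5: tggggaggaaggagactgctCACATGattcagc
Oca2: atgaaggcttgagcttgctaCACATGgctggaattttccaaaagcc
Rab27a: cttgCACGTGctcctccgtctgtctgaacc
Ctsd: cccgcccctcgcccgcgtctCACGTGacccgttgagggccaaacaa
In Slc24a5 and Oca2 the motif stands as CACATG, which is CATGTG on the other strand. In Tyr, Tyrp1, Dct and the first start of Trpm1 a t comes directly before CATGTG, and in Slc24a5 the same 7 letters run on the other strand. TCATGTG was present in 6 of the 10 pigment genes, these 5 and Mc1r, the receptor that drives dark pigment, and in 3.72% of all 27025 genes with a window. These are matches of letters, and binding was not measured. The lists hold genes already known as targets, and CLEAR genes are known by their CACGTG sites, so that their shares are descriptions and no test. TCATGTG was chosen after the windows were seen.

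The libraries held 13017 control and 13880 mutant barcodes with medians of 9339 and 8702 unique molecular identifiers (UMIs, counted molecules), and 11576 and 12623 cells were kept. Cells were clustered without the 4 members, the markers and the genes of the lists used below, and 17 classes with at least 30 cells in each library are described, named from fixed markers as "X-like" where these allowed it. Left outside the 17 were mixed immune cells, 119 control and 154 mutant, most of which depth or leading genes kept from a name, and shallow cells without a name. The label RPE was met by 354 control and 184 mutant cells, 3.06% and 1.46% of the kept cells. Of 8 RPE markers 7 were found in the control and 5 in the mutant cells, with Rpe65, a visual cycle enzyme that comes on late, at 0 in both and Rgr and Lrat at 0 in the mutant. Melanocyte-like cells numbered 51 and 30. Pax3, a neural crest factor that separates melanocytes from RPE, had 197 and 122 UMIs in them against 0 and 1 in RPE-like cells. Myrf itself had 293 UMIs in control and 57 in mutant RPE-like cells, or 76.6 and 30.4 CPM, the UMIs of a gene per 1000000 UMIs of its class. The libraries shared 69 barcode sequences, and they differed in sex. UMIs from Y-linked genes were found in 0 control and 51 mutant RPE-like cells, and Xist was found without any Y-linked UMI in 188 and 41.

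Mitf was a transcript of the pigment cells. RPE-like and melanocyte-like cells together made up a small share of the eye cup but held most of its Mitf UMIs, 49.0% (95% interval 46.7 to 51.4) and 29.9% in the control and 36.6% and 28.9% in the mutant. With at most 5% mitochondrial UMIs the control share of RPE-like cells was 23.7%. Among the 17 classes the level was highest in melanocyte-like cells, at 764 CPM (700 to 831) in control and 582 CPM (512 to 659) in mutant cells, and second in RPE-like cells, at 227 CPM (212 to 242) and 167 CPM (149 to 187). Melanocyte-like cells thus carried 3.37 times (3.02 to 3.76) the Mitf of RPE-like cells in the control and 3.48 times (2.93 to 4.12) in the mutant, and the intervals of the 2 classes did not overlap in either library. Next came the macrophage-like cells, at 34.1 CPM (23.8 to 47.5) and 22.2 CPM (14.8 to 31.8), and a cluster led by Cartpt, Pax2 and Zic1 that was left without a cell type name, at 37.3 CPM (23.1 to 57.0) and 29.7 CPM (18.4 to 45.5). The intervals of these last 2 overlapped. The other 13 classes lay between 0 and 6.61 CPM in the control and between 0 and 4.36 CPM in the mutant. Periocular mesenchyme, the largest class outside the retina, had 4.94 CPM (4.29 to 5.67) and 4.36 CPM (3.65 to 5.18). The 6 classes of the neural retina, pooled, had 47 UMIs in 4388 control cells and 53 UMIs in 6276 mutant cells, or 0.975 CPM and 0.804 CPM. Erythroid-like cells, which should lack the gene, had 0.262 and 0.884 CPM.

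**Figure D1:**
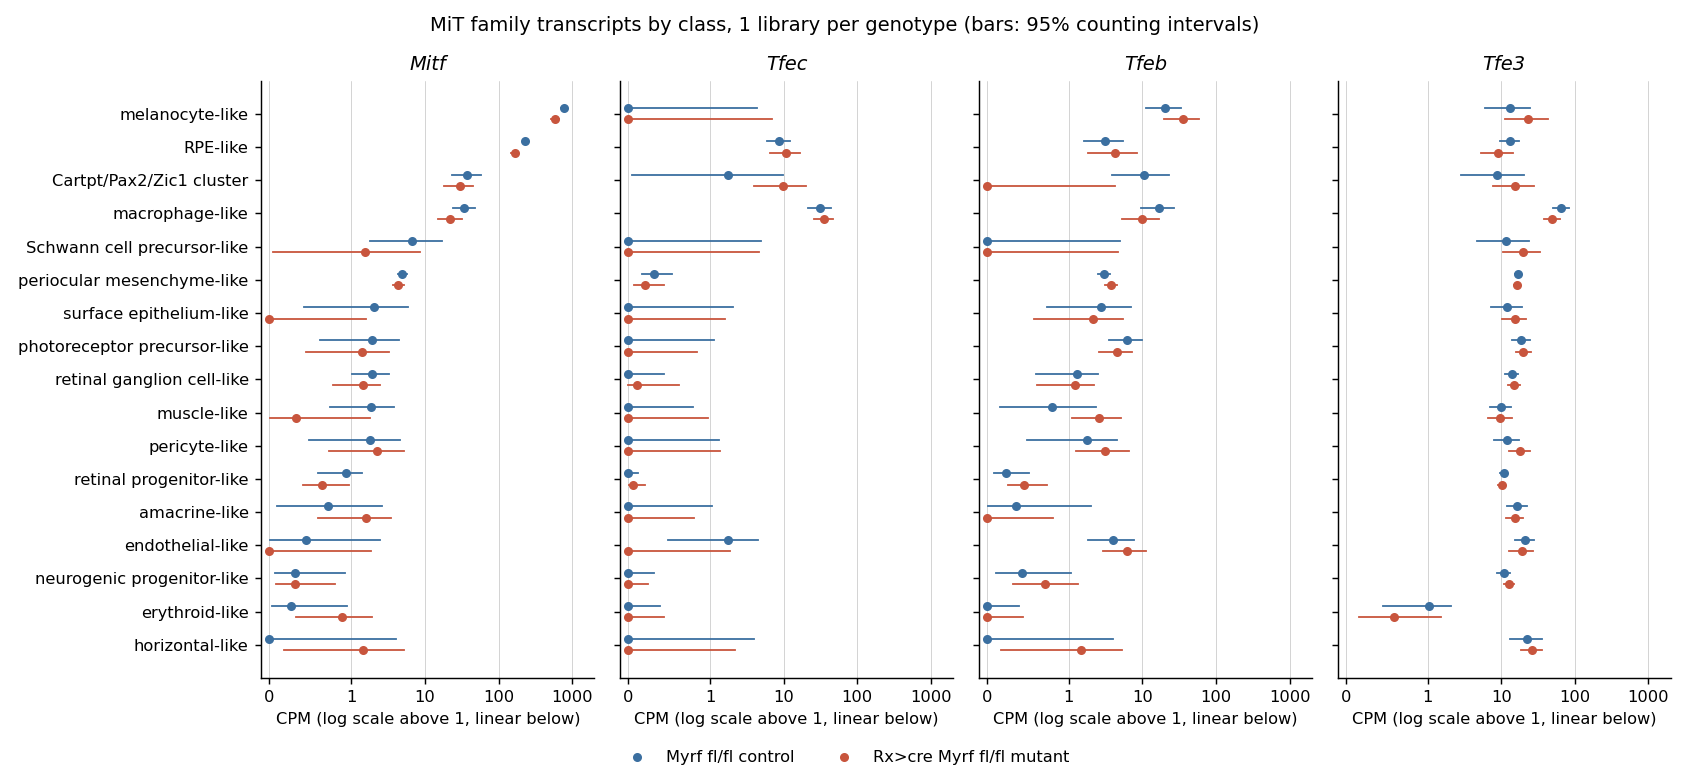
CPM of the 4 members (horizontal axes, logarithmic above 1 CPM and linear below) in 17 classes of the control (blue) and mutant (red) library, with exact 95% counting intervals as bars and, for a count of 0, the level that 3 UMIs would give as the end of the bar. Mitf stands highest in melanocyte-like and RPE-like cells, Tfec in macrophage-like and RPE-like cells, and Tfe3 is spread over all 17 classes.

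Pigment genes differed in their order between the 2 pigment classes. In the control, Pmel, which forms the fibrils of the melanosome, was 1.11 times as high in melanocyte-like as in RPE-like cells, and Dct, a melanin enzyme, was 4.16 times as high. Tyr, the rate-limiting enzyme of melanin synthesis, was 0.812 times as high, and Trpm1, the host gene of a small RNA known as a target of MITF, was 0.319 times as high. All 4 of these intervals left out 1. The same ratios in the mutant were 1.23, 5.00, 0.80 and 0.321. Slc45a2, a melanosome transporter, was 4.18 and 3.88 times and Gpnmb 1.11 and 1.25 times as high in melanocyte-like cells, Mlana 0.593 and 0.815 times, and Tyrp1 turned from 0.539 times in control to 1.39 times in mutant cells. Counted against Pmel, RPE-like cells held 29.2 Mitf UMIs per 1000 Pmel UMIs (27.3 to 31.3) in the control and 21.6 (19.3 to 24.2) in the mutant, and melanocyte-like cells held 88.9 (81.2 to 97.2) and 61.4 (53.8 to 69.8). In macrophage-like cells, where Pmel had 5 and 2 UMIs, the 35 and 29 Mitf UMIs came with almost no pigment transcript, and in the Cartpt/Pax2/Zic1 cluster the values were 553 and 457 Mitf UMIs per 1000 Pmel UMIs. These proportions lay far above the 29.2 and 88.9 of the pigment classes, and so did the 571 and 1040 of periocular mesenchyme-like cells. Other classes with little Pmel varied widely, among them retinal progenitor-like cells at 107 and 85.8.

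Within the RPE-like class Mitf was spread over many cells. At least 1 Mitf UMI was found in 220 of 354 control cells (62.1%) and 98 of 184 mutant cells (53.3%), with a median of 1 UMI and a highest value of 19 and 13. In melanocyte-like cells it was found in 50 of 51 (98.0%) and 28 of 30 (93.3%), with medians of 9 and 8.5 UMIs. For comparison, a Mitf UMI was found in 0.863% of 2317 and 0.643% of 3424 retinal progenitor-like cells and in 0.412% and 0.471% of erythroid-like cells, with median depths of 16716.5 and 16735 UMIs. The median depths differed, at 8117 and 4999.5 UMIs for RPE-like, 12713 and 13294.5 for melanocyte-like and 10242 and 9525.5 for retinal progenitor-like cells. After each cell was thinned to 2000 UMIs and shallower cells were left out, the shares were 40.7% (34.5 to 47.1) of 246 control and 25.4% (18.0 to 34.1) of 122 mutant RPE-like cells, with 108 and 62 cells left out. They were 82.4% (69.1 to 91.6) of 51 and 66.7% (47.2 to 82.7) of 30 melanocyte-like cells. In retinal progenitor-like cells the thinned shares were 0.0876% and 0.208%.

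**Figure D2:**
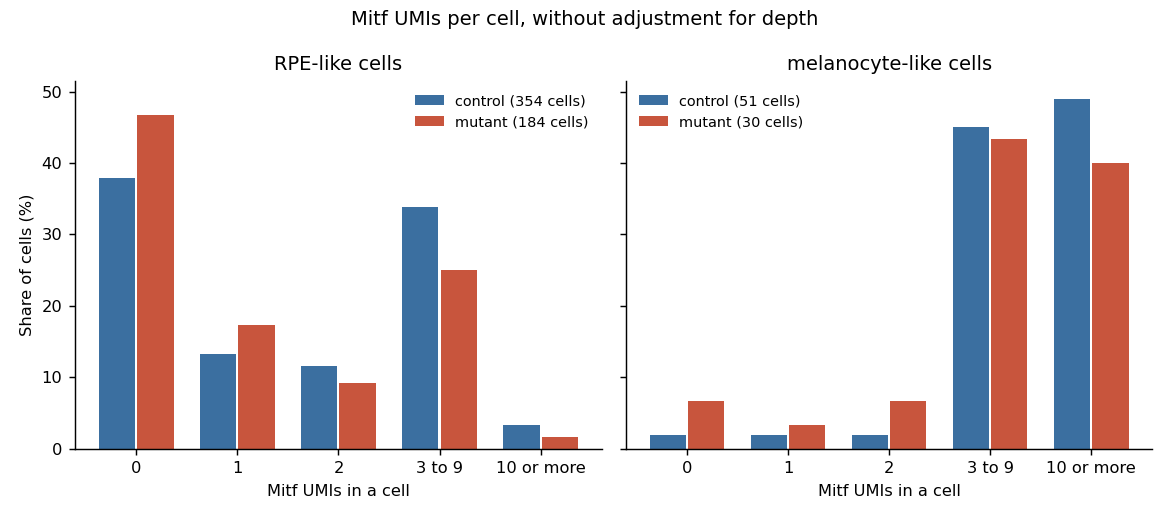
Share of cells (vertical axis, percent) by the number of Mitf UMIs in a cell (horizontal axis) for RPE-like and melanocyte-like cells of the control (blue) and mutant (red) library. Cells with 10 or more Mitf UMIs numbered 12 and 3 among RPE-like and 25 and 12 among melanocyte-like cells.

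The study's main contrast was mutant against control RPE. Here Mitf was lower in the mutant library, with 314 UMIs and 167 CPM against 867 UMIs and 227 CPM, a ratio of 0.738 (0.647 to 0.841) or a log2 ratio of -0.44. The intervals of the 2 levels did not overlap, while the difference stayed under 1.5-fold. Over all 11021 genes with at least 20 UMIs in RPE-like cells the median log2 ratio was -0.06, and 3.72% were lower and 2.63% higher by over 1.5-fold with an interval that left out 1. None of the 4 members was among these. In the 246 control and 122 mutant RPE-like cells with at least 2000 UMIs, the median Mitf value was 2.05 and 1.17 UMIs per 10000.

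The ratio was also taken by depth. In cells with 2000 to under 10000 UMIs Mitf stood at 270 CPM against 152 CPM, control first, a ratio of 0.563 (0.363 to 0.849). In cells with 10000 to under 20000 UMIs the ratio was 0.780 (0.634 to 0.955), and at 20000 or more it was 0.736 (0.602 to 0.896). Below 2000 UMIs, with 14 control and 12 mutant UMIs in 108 and 62 cells, the direction was the opposite, at 116 and 170 CPM and a ratio of 1.47 with an interval of 0.622 to 3.43. The mutant was thus lower in each of the 3 deeper groups, and the shallow cells did not settle a direction. Markers of other cells also differed with genotype in this class, in both directions. The summed level of 11 mesenchyme markers, all found in both libraries, was 570 CPM in control and 1060 CPM in mutant RPE-like cells, and that of 6 retinal progenitor markers, also all found, was 710 and 988 CPM. Markers of neurogenic progenitors, 7 of 7 found, were lower in the mutant at 310 and 235 CPM, as were those of retinal ganglion cells, 9 of 9 found, at 137 and 64.5 CPM. The largest such sum was that of red cell markers, 5 and 4 of 6 found, at 5766 CPM in control and 4756 CPM in mutant cells. The 8 RPE markers summed to 4062 and 4102 CPM. The part of these markers in the Mitf ratio was not tested. Taken over Xist-positive cells free of Y-linked UMIs alone, the log2 ratio was -0.42.

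**Figure D3:**
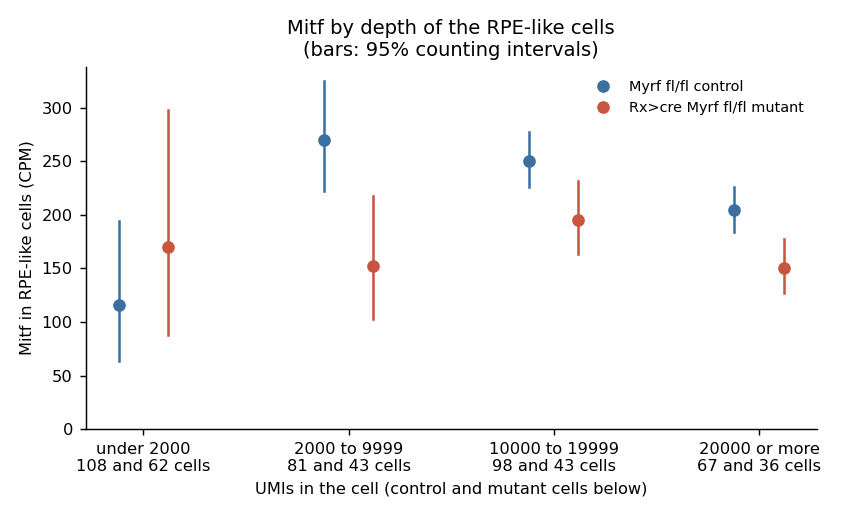
Mitf in RPE-like cells (vertical axis, CPM) in 4 groups of cells by total UMIs (horizontal axis) in the control (blue) and mutant (red) library, with exact 95% counting intervals. The mutant lies below the control in the 3 groups with 2000 or more UMIs and above it, with overlapping intervals, in the shallowest group.

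Melanocyte-like cells, which Rx-driven Cre should not reach, showed a ratio of like size. Control cells held 529 and mutant cells 248 Mitf UMIs, 764 and 582 CPM, a ratio of 0.762 (0.653 to 0.888). In this class 3.58% of 6530 genes were lower and 3.02% higher by over 1.5-fold with an interval that left out 1, and neither of the 2 members with at least 20 UMIs, Mitf and Tfeb, was called. The RPE-like ratio divided by the melanocyte-like ratio was 0.968, with an approximate interval from counting error of 0.794 to 1.18, so that no difference between the classes was detectable at this depth. In macrophage-like cells the ratio was 0.649 (0.383 to 1.09), in the Cartpt/Pax2/Zic1 cluster 0.797 (0.414 to 1.53), in periocular mesenchyme-like cells 0.883 (0.704 to 1.11) and in retinal progenitor-like cells 0.694 (0.374 to 1.28). All 6 of these ratios were below 1, and 2 of their intervals left out 1. Classes with fewer Mitf UMIs went both ways with wide intervals, among them amacrine-like cells at 2.23 (0.398 to 22.5), erythroid-like cells at 3.37 (0.602 to 34.1) and pericyte-like cells at 1.27 (0.273 to 6.38), and the unnamed immune cells, with 8 and 23 UMIs, were at 1.78 (0.767 to 4.59). Whether the lower Mitf of the mutant RPE goes with the loss of Myrf or with the library cannot be told apart with 1 library per genotype.

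**Figure D4:**
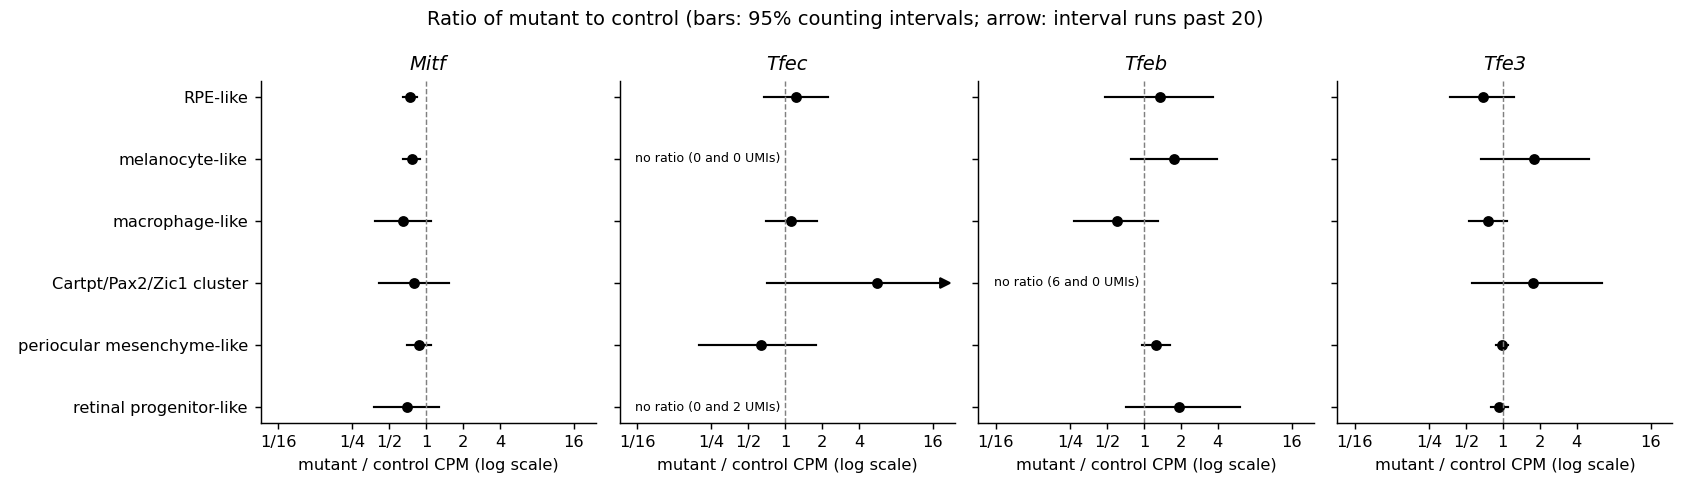
Ratio of mutant to control CPM (horizontal axes, logarithmic) for the 4 members in 6 classes, with exact 95% counting intervals. The Mitf intervals of RPE-like and melanocyte-like cells lie wholly below 1, and every interval drawn for Tfec, Tfeb and Tfe3 includes 1. No ratio is drawn where a library had 0 UMIs, as for Tfeb in the Cartpt/Pax2/Zic1 cluster.

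Tfec was the most restricted member. It had no UMI in 12 of 17 control and 11 of 17 mutant classes. Its highest level was in macrophage-like cells, with 32 and 46 UMIs or 31.2 CPM (21.4 to 44.1) and 35.1 CPM (25.7 to 46.9), and it was present in 25.3% and 35.2% of these cells. The unnamed immune cells overlapped these levels, at 29.2 CPM (19.1 to 42.8) and 21.5 CPM (14.6 to 30.5), and held 23.6% and 27.4% of all Tfec UMIs. RPE-like cells came second among the 17 classes with 33 and 20 UMIs, 8.63 CPM (5.94 to 12.1) and 10.7 CPM (6.51 to 16.5). In the mutant the Cartpt/Pax2/Zic1 cluster was close, with 7 UMIs or 9.91 CPM (3.99 to 20.4) and a ratio of RPE-like cells to it of 1.07 (0.436 to 3.01), so that second place was not resolved there. The cluster had 1 Tfec UMI in the control. Macrophage-like cells thus had 3.62 times (2.15 to 6.07) the level of RPE-like cells in the control and 3.30 times (1.91 to 5.89) in the mutant. The control ratio was 6.64 as a mean over cells, and the mutant ratio was 9.26 without the 5 richest cells. After thinning to 2000 UMIs per cell the control ratio was 7.34. That value rests on 4 UMIs in 67 macrophage-like cells and 2 UMIs in 246 RPE-like cells. Melanocyte-like cells had 0 UMIs in both libraries, which allows up to 4.33 CPM for control and 7.04 CPM for mutant cells, the level of 3 UMIs. On that limit Tfec was 7.21-fold and 4.99-fold higher in macrophage-like cells, in the control and mutant, than in the class with the most Mitf. The counting intervals of these 2 ratios reached down to 5.53 and 3.90. The 6 neural retina classes held 0 and 3 Tfec UMIs, and erythroid-like cells held 0 in both.

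Tfec in the RPE was carried by few cells, 21 control and 9 mutant, of which 20 and 9 also held Mitf. These cells were deep, with median totals of 21310 and 17992 UMIs, and the 5 cells richest in Tfec held 39.4% of its control and 75% of its mutant UMIs. Markers of macrophages were present in the class at 17.5 and 25 CPM in sum, with 5 of 8 found in each library, among them Csf1r, the receptor that defines these cells, in 18 and 14 cells. None of the cells with a Csf1r UMI held a Tfec UMI. The mutant to control ratio of Tfec was 1.24 (0.672 to 2.22) in RPE-like and 1.13 (0.702 to 1.83) in macrophage-like cells, and neither interval left out 1. The RPE value turned to a log2 ratio of -0.93 without the 5 richest cells of each library and to -0.86 with a limit of 5% mitochondrial UMIs, so that no direction can be given. In macrophage-like cells 2.2% of 7855 genes were lower and 2.61% higher by over 1.5-fold with an interval that left out 1, and none of the 4 members was. Markers of red cells summed to 301 CPM in control and 11391 CPM in mutant macrophage-like cells, with 4 and 6 of 6 found. Of the macrophage-like cells 37 control and 45 mutant cells formed a sub-cluster led by globin genes, kept in the class because it held all 5 macrophage markers used for sub-clusters and was not shallow. The part of this difference in the macrophage values was not tested.

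Tfeb, the master regulator of lysosome genes, was a rare transcript with 256 control and 271 mutant UMIs in all kept cells. Among the 17 classes it was highest in melanocyte-like cells, with 14 and 15 UMIs or 20.2 CPM (11.0 to 33.9) and 35.2 CPM (19.7 to 58.1), followed by macrophage-like cells at 16.6 CPM (9.66 to 26.6) and 9.93 CPM (5.29 to 17.0). The intervals of these 2 classes overlapped in the control and not in the mutant. The unnamed immune cells were at 21.3 CPM (12.9 to 33.3) and 20.1 CPM (13.5 to 28.9), so that no single highest group can be given. RPE-like cells had 12 and 8 UMIs, 3.14 CPM (1.62 to 5.48) and 4.26 CPM (1.84 to 8.40), close to the 3.01 and 3.8 CPM of periocular mesenchyme-like cells. Melanocyte-like cells carried 6.44 times (2.77 to 15.2) the Tfeb of RPE-like cells in the control and 8.26 times (3.29 to 22.5) in the mutant. Among retinal classes photoreceptor precursor-like cells stood highest, with 16 UMIs in each library, at 6.11 and 4.46 CPM, against 0.233 and 0.450 CPM in retinal progenitor-like cells. Erythroid-like cells held 0 UMIs. The Cartpt/Pax2/Zic1 cluster had 6 control UMIs, 10.7 CPM, and 0 mutant UMIs, and the interval of its mutant to control ratio ran up to 0.677. Mutant to control ratios were 1.36 (0.482 to 3.61) in RPE-like, 1.74 (0.784 to 3.90) in melanocyte-like and 0.599 (0.267 to 1.31) in macrophage-like cells, with 1 inside each of these 3 intervals.

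Tfe3, the X-linked member, was found in all 17 classes. Its control levels ran from 1.05 CPM in erythroid-like to 65.4 CPM (50.7 to 83.0) in macrophage-like cells, with a median of 13 CPM over the classes, and its mutant levels from 0.589 to 49.7 CPM (38.3 to 63.3) with a median of 15.6 CPM. Macrophage-like cells stood clear of the second of these classes, horizontal-like cells at 22.7 CPM (13.2 to 36.3) and 26.2 CPM (18.4 to 36.3), with no overlap of the intervals. The unnamed immune cells lay between them, at 39.3 CPM (27.4 to 54.7) and 31.9 CPM (23.4 to 42.6), and overlapped both in each library. RPE-like cells, with 50 and 17 UMIs or 13.1 CPM (9.70 to 17.2) and 9.06 CPM (5.28 to 14.5), overlapped the neural retina, at 12.2 and 12.5 CPM over its 6 classes. Melanocyte-like cells were at 13 CPM (5.94 to 24.7) and 23.5 CPM (11.3 to 43.2), which was 0.994 times (0.430 to 2.04) the RPE-like level in the control and 2.59 times (1.06 to 5.99) in the mutant. Mutant to control ratios of Tfe3 were 0.693 (0.375 to 1.22) in RPE-like, 0.760 (0.532 to 1.09) in macrophage-like, 0.937 (0.799 to 1.10) in retinal progenitor-like and 0.980 (0.871 to 1.10) in periocular mesenchyme-like cells. They were above 1 in others, among them melanocyte-like cells at 1.81 (0.660 to 5.03), the Cartpt/Pax2/Zic1 cluster at 1.75 (0.562 to 6.44) and neurogenic progenitor-like cells at 1.2 (0.928 to 1.55), and 1 lay inside the interval in each of the 17 classes. Since the libraries differ in sex, the RPE ratio was also taken over Xist-positive cells free of Y-linked UMIs, and its log2 value was -0.61 there against -0.53 over all cells.

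The 4 members did not share a pattern over the 34 points given by 17 classes in 2 libraries. On log2(CPM + 1), Pearson's r was 0.64 between Mitf and Tfeb, 0.52 between Mitf and Tfec, 0.45 between Tfeb and Tfe3, 0.38 between Tfec and Tfe3, 0.35 between Tfec and Tfeb and 0.19 between Mitf and Tfe3. The points share 2 libraries and differ in depth, so these values are descriptions. Of 15176 genes, those most like Mitf were Bhlhe41 (r = 0.93), a repressor of the same wider protein family, Uap1l1 (0.91), Ptgds (0.88), a prostaglandin synthase, and the pigment cell genes Gpnmb (0.88) and Slc45a2 (0.87). Those most like Tfec were Il18 (0.93), a cytokine, Slc11a1 (0.87), a metal transporter of phagosomes, Gas6 (0.85), Alox5 (0.84) and H2-K1 (0.83). Tfeb came closest to Myo7a (0.79), a myosin that moves melanosomes, Renbp (0.78), Tmem144 (0.77), Kif16b (0.76) and Inpp4b (0.76). Tfe3 came closest to Epn1 (0.93), Abi1 (0.93), Dnm2 (0.93), Ap1b1 (0.92) and Picalm (0.92), of which Epn1, Dnm2, Ap1b1 and Picalm act in clathrin-coated vesicles.

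Pigment genes of the mutant RPE stayed within 1.5-fold of the control, beside the lower Mitf. Of 15 melanosome genes known as MITF targets, 13 had at least 20 UMIs in RPE-like cells, with a median log2 ratio of -0.07 (from -0.51 to 0.10) beside -0.06 for all genes, and 0 of 13 passed 1.5-fold, where 3.72% of all genes were called lower and 2.63% higher. Pmel had 29657 and 14529 UMIs, a ratio of 0.998 (0.979 to 1.02), and Dct a ratio of 1.01 (0.974 to 1.05). The intervals of 3 genes lay below 1 and of 0 above it. Trpm1 was at 0.848 (0.815 to 0.882), Mlana, a melanosome protein, at 0.94 (0.891 to 0.991), and Rab38, which carries melanin enzymes to the melanosome, at 0.702 (0.621 to 0.793). Of 3 genes of RPE function tied to Mitf or Tfec, 2 were measured and neither passed. The calcium channel Trpm3 was at 0.983 (0.872 to 1.11) and Serpinf1, which encodes the secreted factor PEDF, at 1.30 (0.954 to 1.77), while Best1 had 4 and 1 UMIs.

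In melanocyte-like cells, where Mitf was lower as well, 14 of the 15 pigment genes were measured and 2 were higher by over 1.5-fold, with a list median of 0.09 beside -0.05 for all genes, where 3.58% of all genes were called lower and 3.02% higher. Tyrp1, a melanin enzyme, had 199 control and 301 mutant UMIs, 287 and 707 CPM, a ratio of 2.46 (2.05 to 2.96). It was found in 72.5% and 90.0% of the cells, and its median over cells was 1.64 and 4.58 UMIs per 10000. In RPE-like cells Tyrp1 was at 533 and 507 CPM, a ratio of 0.951 (0.880 to 1.03). Oca2, a melanosome transporter, had 13 and 28 UMIs in melanocyte-like cells, found in 7 and 10 cells, a ratio of 3.50 (1.76 to 7.37). Without melanocyte-like cells above the median of their library for the RPE marker Ttr, the log2 ratio of Tyrp1 went from 1.30 to 0.85 and that of Oca2 from 1.81 to 0.90. Dct at 1.21 (1.17 to 1.26), Pmel at 1.10 (1.06 to 1.15), Slc24a5 at 1.19 (1.06 to 1.34) and Mlana at 1.29 (1.12 to 1.48) had intervals above 1, and Trpm1 at 0.853 (0.730 to 0.994) and Rab38 at 0.797 (0.637 to 0.993) below it. The depth of the classes differed little, but markers of neurogenic progenitors summed to 110 and 885 CPM, with 6 and 7 of 7 found, those of mesenchyme to 383 and 108 CPM, with 11 and 7 of 11 found, and those of RPE to 118 and 171 CPM, with 4 and 3 of 8 found. Their part in these ratios was not tested. The genes of RPE function had under 20 UMIs each in this class.

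**Figure D5:**
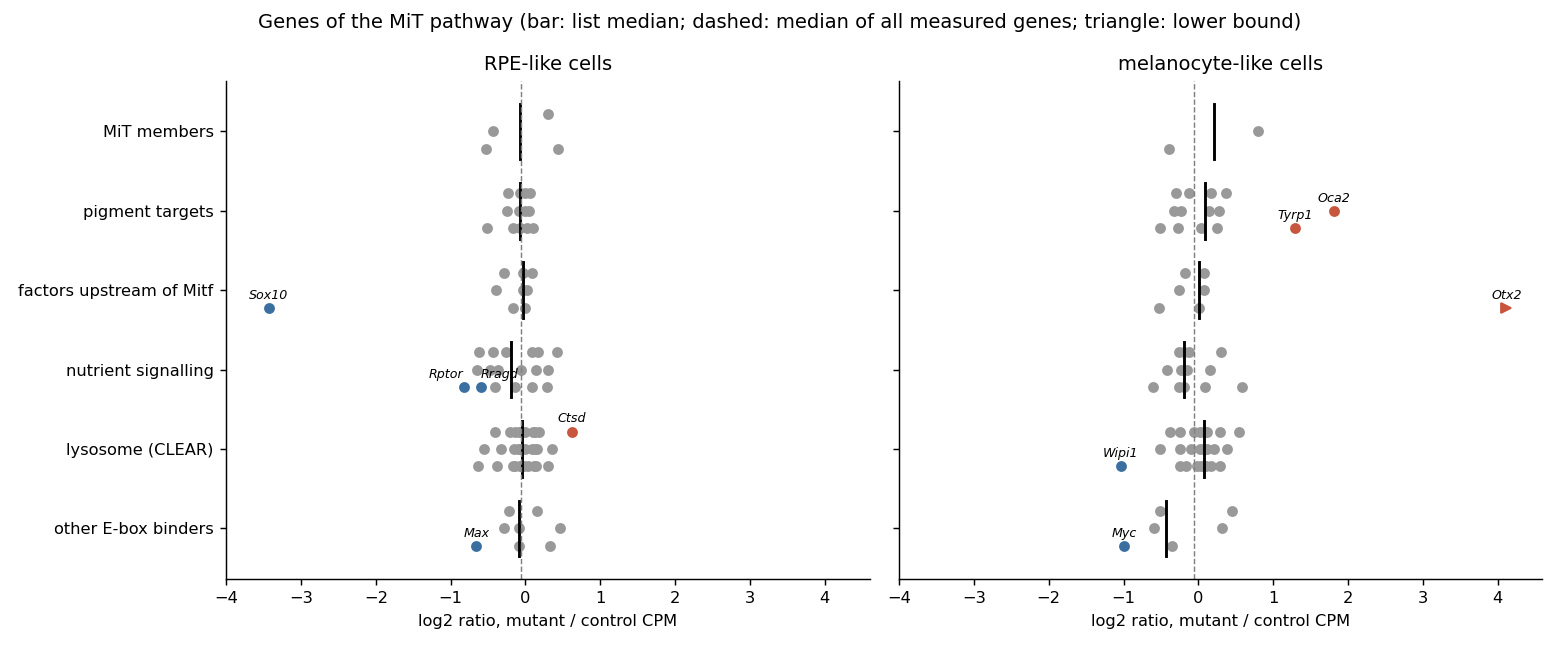
Log2 ratio of mutant to control CPM (horizontal axes) for the measured genes of 6 lists in RPE-like and melanocyte-like cells. Grey points are genes not called, blue and red points genes lower or higher by over 1.5-fold with an interval that leaves out 1, black bars list medians, the dashed lines the medians of all measured genes, and the triangle a lower bound against 0 UMIs. The list medians of RPE-like cells lie between -0.20 and -0.03, and Sox10 stands apart. 1 gene of the upstream factors is counted in the median bars and not drawn.

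Among 12 factors placed upstream of Mitf, 10 were measured in RPE-like cells, with a median log2 ratio of -0.03 beside -0.06 for all genes, of which 3.72% were called lower and 2.63% higher. Of those described here Sox10 alone was called. Sox10, which drives Mitf in the neural crest, had 44 UMIs in 34 control cells and 2 UMIs in 2 mutant cells, a ratio of 0.0926 (0.0109 to 0.355). Its log2 ratio of -3.43 became -0.996 with at most 5% mitochondrial UMIs. After thinning no mutant Sox10 UMI was left. The value of -0.40 there is a bound, with 3 UMIs set in place of 0, and not a measured ratio. Pax3, which marks melanocytes, had 0 and 1 UMIs in this class, while 6 markers of Schwann cell precursors, of which 4 were found in each library, summed to 30.3 and 13.3 CPM. Their part in the Sox10 ratio was not tested. Otx2, which works with Mitf in the RPE, was at 0.893 (0.816 to 0.976), Pax6 at 0.980 (0.877 to 1.09), Tead1 at 0.818 (0.697 to 0.958) and Otx1 at 0.998 (0.771 to 1.28). In melanocyte-like cells 7 of the 12 were measured, with a median of 0.01 beside -0.05 for all genes, of which 3.02% were called higher. Sox10 stood at 335 and 352 CPM there, a ratio of 1.05 (0.850 to 1.30), and Pax3 at 1.01 (0.797 to 1.27). Otx2 was called higher, with 0 control and 32 mutant UMIs. On a limit of 3 UMIs it was 17.3-fold higher, a log2 ratio of 4.12 with an interval that reached down to 3.73. The mutant UMIs lay in 2 of 30 cells, with 24 in 1 of them, and the log2 ratio ran from 2.41 to 5.00 over 8 alternatives.

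The genes that hold MiT proteins at the lysosome and in the cytoplasm were all measured in RPE-like cells, 18 of 18, with a median log2 ratio of -0.20 beside -0.06 for all genes, and 2 were called lower, beside 3.72% of all genes. Rragd, a Rag GTPase that recruits these factors and is itself known as a MiT target, had 378 and 123 UMIs, a ratio of 0.663 (0.537 to 0.815), and was found in 45.5% and 33.2% of cells. Its log2 ratio of -0.59 turned to 0.05 with at most 5% mitochondrial UMIs and was -0.35 over Xist-positive cells free of Y-linked UMIs, and it fell short of 1.5-fold under 7 of 13 alternatives. Rptor, the substrate-binding subunit of mTORC1, had 65 and 18 UMIs, a ratio of 0.564 (0.315 to 0.963), and on the log2 scale it ran from -1.69 to -0.75 over 12 alternatives. The 4 most abundant genes, subunits of the Ragulator complex that anchors the Rag GTPases, were not called, with Lamtor2 at 1.22 (1.08 to 1.37), Lamtor4 at 0.910 (0.796 to 1.04), Lamtor1 at 1.12 (0.987 to 1.28) and Lamtor5 at 1.10 (0.963 to 1.26). In melanocyte-like cells 13 were measured with a median of -0.19 and 0 called, where 3.58% of all genes were called lower and 3.02% higher. In macrophage-like cells 15 were measured with a median of -0.16 beside -0.02 for all genes, of which 2.61% were called higher, and Fnip1, a partner of folliculin, was called higher with 40 and 89 UMIs, a ratio of 1.74 (1.19 to 2.60), and after thinning the log2 value went from 0.80 to 0.38, under 1.5-fold.

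Of 33 lysosome and autophagy genes of the CLEAR network, all 33 were measured in RPE-like cells, with a median log2 ratio of -0.05 and 1 called higher, a share close to the 2.63% of all genes. This was Ctsd, the lysosomal protease cathepsin D whose promoter window is printed above, with 4719 and 3550 UMIs, 1233 and 1891 CPM, a ratio of 1.53 (1.47 to 1.6). Its log2 ratio ran from 0.07 to 0.68 over 13 alternatives, and the cells did not share it evenly. In cells with at least 2000 UMIs the median was 10.6 UMIs per 10000 in the control and 9.10 in the mutant, while the upper quartile was 23.0 and 30.7. Cd63 at 0.999 (0.959 to 1.04), Lamp1 at 0.957 (0.868 to 1.05) and Hexa at 1.09 (0.971 to 1.22) were not called. In melanocyte-like cells 27 were measured with a median of 0.07, 1 was called lower, a share close to the 3.58% of all genes, and this was Wipi1, an autophagy gene, with 40 and 12 UMIs, a ratio of 0.488 (0.233 to 0.949). On the log2 scale its value of -1.04 became -0.30, under 1.5-fold, over Xist-positive cells free of Y-linked UMIs, and -2.26 without the 5 richest cells. In macrophage-like cells 29 were measured with a median of -0.08 and 0 called, where 2.2% of all genes were called lower and 2.61% higher.

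The 2 remaining lists held 3 more calls in RPE-like and macrophage-like cells and 1 in melanocyte-like cells. Over all genes, 3.72% were called lower and 2.63% higher in RPE-like, 3.58% and 3.02% in melanocyte-like and 2.2% and 2.61% in macrophage-like cells. Of 6 genes of osteoclasts and macrophages known as MiT targets, 3 were measured in RPE-like cells, with a median of 0.19. Ctsk, the protease cathepsin K, was called higher with 27 and 25 UMIs, a ratio of 1.89 (1.05 to 3.38), but its mutant UMIs came from 5 cells, with 21 in 1 of them, and its direction turned in 4 alternatives. In macrophage-like cells 3 of the 6 were measured, and Acp5, the tartrate-resistant acid phosphatase, was called lower with 39 and 9 UMIs, a ratio of 0.181 (0.0770 to 0.379), with 27 of the control UMIs in 1 cell. On the log2 scale its value of -2.47 became -0.78 and -1.08 at Leiden resolutions of 0.6 and 1.5 and -1.38 without the 5 richest cells. In melanocyte-like cells 2 were measured and 0 called. Of 9 other factors that read the E-box, 8 were measured in RPE-like cells with a median of -0.09, and Max, the partner of Myc proteins, was called lower with 151 and 47 UMIs, a ratio of 0.634 (0.447 to 0.885). With at most 5% mitochondrial UMIs its log2 ratio went from -0.66 to -0.16, and it was -0.30 as a mean over cells and -0.40 over Xist-positive cells free of Y-linked UMIs, all under 1.5-fold. Usf2 was at 0.819 (0.680 to 0.983), Srebf2 at 1.12 (0.839 to 1.48) and Usf1 at 0.943 (0.661 to 1.33). In melanocyte-like cells 6 were measured with a median of -0.43, and Myc was called lower with 42 and 13 UMIs, a ratio of 0.503 (0.248 to 0.956), with a log2 ratio between -2.56 and -0.78 over 12 alternatives. In macrophage-like cells 8 were measured with a median of -0.01 and 0 called. Pigment and upstream genes were mostly below 20 UMIs in macrophage-like cells, where 2 of each were measured, 0 pigment genes were called, and Pax6, an eye field gene, was called higher with 3 and 18 UMIs, a ratio of 4.70 (1.37 to 24.9), with a log2 ratio between 1.30 and 3.50 over 11 alternatives. Markers of retinal ganglion cells summed to 21.5 and 57.3 CPM in this class and those of mesenchyme to 60.5 and 135 CPM. Markers of some other cells were lower in the mutant, among them those of retinal progenitors at 49.8 and 29.8 CPM. The part of these markers in the Pax6 ratio was not tested.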

How the data were processed

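Single-cell 3′ libraries (10x) of e15.5 eye cups, 1 per genotype, were analysed. The authors deposited raw counts of UMIs per gene and barcode, 13017 and 13880 barcodes with 132436812 and 135678970 UMIs, which are also the cell numbers the study states. The labels give mm10, Cell Ranger 7.1.0 and Seurat 4.1.1, and the matrix header gives software version 3.1.0. Cells with at least 200 genes and at most 15% mitochondrial UMIs were kept, and doublets (366 and 395) were removed at a Scrublet score of 0.2, set after the automatic threshold failed in the mutant. Clustering used scanpy 1.11.5 (1883 features, 30 components, 15 neighbours, Leiden resolution 1) and gave 33 clusters, 28 named from fixed markers with naming limits set after seeing the data and 5 unnamed. The unnamed shallow cells numbered 2602 and 2795. The Cartpt/Pax2/Zic1 cluster was kept unnamed after its leading genes were seen. Class names were rebuilt here and may differ from the study's.

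UMIs were summed per class and library and given as CPM with exact Poisson 95% intervals, ratios with exact conditional binomial intervals and shares with Clopper-Pearson intervals, all for counting error only (scipy 1.17.1). UMIs are counted molecules and cells are not replicates, so no p-value was computed. A gene was measured with at least 20 UMIs in a class over both libraries, and called past 1.5-fold where the interval left out 1. A count of 0 was set against 3 UMIs. The ratio code was checked on simulated counts. 3′ counts do not separate the isoforms of Mitf (ENSMUSG00000035158, chr6:97807052-98021349, plus strand, 6 coding transcripts with 6 starts in GENCODE), Tfec (ENSMUSG00000029553, chr6:16833373-16898441, minus), Tfeb (ENSMUSG00000023990, chr17:47737030-47792419, plus) or Tfe3 (ENSMUSG00000000134, chrX:7762560-7775202, plus), all on GRCm38. The antisense gene Gm15531 overlaps Mitf.

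The members and lists (MiT members, pigment targets, RPE targets, upstream factors, nutrient signalling, CLEAR, osteoclast and macrophage targets, other E-box factors) were chosen with earlier results of these data known. Named were all members, of each list the 4 genes with the most UMIs in RPE-like cells and every called gene, the pigment genes with a motif, and the 5 genes most correlated with each member. Rab38, Slc24a5, Sox10, Pax3 and the TCATGTG motif were chosen, where the rule did not name them, after their values were seen. The alternatives tried are given in the closing section. The values of 1 upstream factor are not reported here.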

Additional observations from a re-analysis of the deposited data

How the results depend on the processing

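With cells over 2000 UMIs removed, a limit found in the study's methods that may mean another quantity and that drops 79.1% and 80.6% of the barcodes here, the Mitf log2 ratio in RPE-like cells reversed from -0.44 to 0.56, the median of the pigment genes moved to -0.30, and the control RPE share of Mitf UMIs became 70.0% and that of Tfec 0%. Thinned to 2000 UMIs per cell, the Mitf log2 ratio was -0.88 in RPE-like and -0.16 in melanocyte-like cells, the control RPE shares were 52.1% for Mitf and 15.4% for Tfec, and the melanocyte-like to RPE-like ratio of Mitf was 2.88 in the control and 4.74 in the mutant. The macrophage-like to RPE-like ratio of Tfec was then 7.34 in the control, from 4 and 2 UMIs. With at most 5% mitochondrial UMIs, the Tfec log2 ratio in RPE-like cells was -0.86, the control RPE shares were 23.7% for Mitf and 15.2% for Tfec, the control Mitf ratio of the pigment classes was 3.82, and Rragd reversed to 0.0544. As means over cells of counts per 10000, Tfeb in RPE-like cells was at 2.41, the Tfec share at 20.6%, the control Mitf ratio of the pigment classes at 4.10 and the control Tfec ratio of macrophage-like to RPE-like cells at 6.64. Without the 5 richest cells, Tfec in RPE-like cells was at -0.93, its share at 20.6% and its mutant macrophage-like to RPE-like ratio at 9.26. The control Mitf share was 41.7% with cells over 20000 UMIs removed and 53.7% without RPE-like cells with Pax3 and melanocyte-like cells above their median of Ttr. Ctsk in RPE-like cells reversed to -1.69 with cells over 20000 UMIs removed, -0.49 as a mean over cells and -0.98 in Xist-positive cells without Y-linked UMIs. Without the 5 richest cells no mutant Ctsk UMI was left, and its value of -0.50 is a bound, with 3 UMIs set in place of 0. Ctsd ran from 0.07 to 0.68 over 13 alternatives. The causes were not tested. Another 141 values of the main results under an alternative moved by less than their counting error. Leaving out RPE-like cells with a Csf1r UMI, RPE-like cells under 2000 UMIs and melanocyte-like cells with an Otx2 UMI was chosen after seeing the data. Tfec in melanocyte-like cells gave no ratio under any alternative, no melanocyte-like cell had under 2000 UMIs, and a shift of scale gives no new share. No paired analysis was possible because each genotype has 1 library.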

Other observations

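Mast cell-like cells, 10 in the control and 9 in the mutant, fell below the class size used above and were named after their values were seen. Mitf, which mast cells need for their development, had 25 control and 14 mutant UMIs, 115 and 114 CPM, a ratio of 0.989 (0.475 to 1.98). All 10 control cells and 5 of 9 mutant cells held a Mitf UMI. Their control level lay below that of melanocyte-like cells, which was 6.62 times (4.44 to 10.3) as high, and Tfec was at 0 UMIs in both libraries, at a depth of 216841 and 122809 UMIs over the cells. None of the 5 mast cell markers was found in RPE-like, melanocyte-like or macrophage-like cells.

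At least 2 members were found together in 29 of 75 control and 36 of 91 mutant macrophage-like cells, in 16 of 51 and 13 of 30 melanocyte-like cells and in 65 of 354 and 27 of 184 RPE-like cells. Of 32 mutant macrophage-like cells with Tfec, 21 also held Tfe3 and 9 held Mitf, and of 19 control cells 10 held Tfe3 and 5 held Mitf. In melanocyte-like cells 11 of 12 control and 9 of 9 mutant cells with Tfeb held Mitf. In RPE-like cells 40 of 43 control and 14 of 16 mutant cells with Tfe3 held Mitf. The RPE-like cells with Tfe3 were deeper than their class, with medians of 17067 and 18551 UMIs, and joint detection was not adjusted for depth.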
